A study of Mus musculus with 12 samples.

Results

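Thyroid hormone acts on the heart and on fat through the genes that receive, import, activate and hold it. The description below covers 7 such genes in heart ventricles and epididymal white adipose tissue (EWAT) of mice carrying a cardiac MED13 transgene: the nuclear receptors Thra and Thrb, the transporter Slc16a10, the deiodinase Dio2, the intracellular binding protein Crym, and the hormone-responsive genes Klf9 and Hcn2. They were taken by symbol from the 23042 entries of each of 2 expression tables, and each of the 7 had 1 entry that carried no other symbol. No gene of the 7 passed an adjusted test of genotype in either tissue. Hcn2, a pacemaker channel subunit, was lower in all 3 MED13cTg ventricle libraries than in every wild-type library, and the EWAT values turned on 2 MED13cTg libraries that stood apart from the rest.

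Thyroid hormone enters cells through membrane transporters, among them the monocarboxylate family member encoded by Slc16a10. Deiodinases convert the prohormone thyroxine to the active hormone triiodothyronine (T3) or inactivate it, and T3 then binds receptors that already sit on DNA, usually as heterodimers with retinoid X receptors (RXR). Without hormone these receptors hold corepressor complexes, and with hormone they recruit coactivators and Mediator, the complex to which MED13 belongs. In the heart T3 is known for raising rate, contractility and relaxation, and in fat for acting on lipogenesis and heat production.

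The libraries came from male C57BL/6 littermates aged 6 weeks by the sample labels, kept on normal chow, and tissues were taken late in the afternoon from fed animals. MED13cTg mice carry a transgene that overexpresses MED13 in the heart, and the promoter that drives it is not given in the sources used here. Wild-type (WT) littermates without it were the controls, and no other allele or treatment is stated for either group. There were 3 libraries for each genotype in ventricles and 3 for each genotype in EWAT, and the design gives this as the number for each genotype and organ. The sources do not say which ventricle and EWAT libraries came from the same mouse.

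Levels are in FPKM, fragment counts divided by the length of the transcript and by the size of the library, so they can be compared between genes. Tests used log2(FPKM + 1) and limma across all entries that averaged 1 FPKM or more in the 6 libraries of the tissue, with Benjamini-Hochberg adjustment over all entries tested and a threshold of 0.05. Fold changes are MED13cTg against WT on that log2 scale, which understates changes of low genes. In bulk tissue, fewer cells of a type and less RNA per cell cannot be told apart.

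The transgene was visible in ventricles. Med13 stood at 13.1, 10.6 and 11.5 FPKM in WT ventricles and at 263.1, 180.6 and 204.5 FPKM in MED13cTg ventricles (log2 fold change 4.08, limma adjusted p = 0.000281). In EWAT, Med13 lay between 7.84 and 11.03 FPKM in the MED13cTg libraries and between 9.43 and 10.94 FPKM in the WT libraries. The 6 ventricle libraries correlated with each other at rank correlations of 0.944 to 0.969 but fell into 2 clusters that crossed the genotypes. MED13cTg replicates 1 and 2 grouped with WT replicate 1 (the first cluster), and MED13cTg replicate 3 with WT replicates 2 and 3 (the second cluster). In EWAT the rank correlations ran from 0.350 to 0.972, and MED13cTg replicates 1 and 2 stood apart. Summed levels of 13 epididymis markers were 74860 to 96670 FPKM in the WT libraries, 11590 and 231 FPKM in those 2 libraries and 76220 FPKM in MED13cTg replicate 3. Of the 11 adipocyte markers, 11 were below every WT library in MED13cTg replicate 1 and 11 were above every WT library in MED13cTg replicate 2. The 7 testis germ cell markers summed to 13640 FPKM in MED13cTg replicate 1, against 212.7 to 302.6 FPKM in WT, and no epididymis, adipocyte or germ cell marker was at 0 in any EWAT library. All 8 cardiomyocyte markers were above 0 in every ventricle library.

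To show the regulatory sequence at the genes whose values are described most closely, the 250 bases before an annotated start site are printed for Hcn2, Klf9 and Thrb, from RefSeq on build GRCm38.p6. They were searched for the receptor half-site AGGTCA on both strands, and capitals mark a match. Among 32851 RefSeq promoters of the same length, 14.02% held the half-site at least once. The Hcn2 window, chr10:79716384-79716633 on the plus strand, held 2 matches, both on the opposite strand and starting 249 and 168 bases before the start site.
Hcn2: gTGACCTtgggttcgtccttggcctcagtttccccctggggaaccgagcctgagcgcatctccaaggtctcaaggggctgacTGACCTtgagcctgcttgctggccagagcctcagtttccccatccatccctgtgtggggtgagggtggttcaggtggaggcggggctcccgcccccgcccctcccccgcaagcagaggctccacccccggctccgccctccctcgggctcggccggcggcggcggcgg
Of the 2 RefSeq start sites of Thrb, the one shown, chr14:17660710-17660959 on the plus strand, held 1 match on the same strand as the gene, starting 184 bases before the start site. The other held none.
Thrb: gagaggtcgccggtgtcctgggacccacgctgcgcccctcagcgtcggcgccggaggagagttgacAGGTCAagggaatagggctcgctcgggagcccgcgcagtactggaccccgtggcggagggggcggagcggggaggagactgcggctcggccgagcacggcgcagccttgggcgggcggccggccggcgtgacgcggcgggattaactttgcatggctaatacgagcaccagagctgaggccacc
The Klf9 window, chr19:23140976-23141225 on the plus strand, held no match.
Klf9: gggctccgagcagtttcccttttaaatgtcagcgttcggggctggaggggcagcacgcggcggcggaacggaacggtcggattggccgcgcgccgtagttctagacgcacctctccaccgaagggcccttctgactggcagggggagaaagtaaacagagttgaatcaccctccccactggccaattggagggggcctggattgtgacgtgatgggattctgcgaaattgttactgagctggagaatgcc
Slc16a10 and Dio2 had 1 window each with no match, and Thra and Crym had no entry, so 5 of the 7 genes could be searched. The direct repeat of the half-site with 4 bases between its copies, the classical arrangement for thyroid hormone receptors, was found in 5 of the 32851 promoters, or 0.0152%. A match is a description of letters in this window and shows no binding, and the absence of one says only that these letters are not there.

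The WT levels placed the genes in different orders in the tissues. In WT ventricles Klf9 (60.3 ± 15.5 FPKM, SD, n = 3) and Thra (51.7 ± 11.7 FPKM) were highest and their ranges overlapped. Hcn2 followed at 14.3 ± 0.849 FPKM, above and not overlapping Thrb (9.11 ± 1.33 FPKM) and Slc16a10 (8.55 ± 0.779 FPKM), which overlapped each other. Dio2 and Crym were lowest, at means of 0.374 and 0.206 FPKM with overlapping ranges. In WT EWAT the order was Slc16a10 (34.0 ± 2.54 FPKM), Thra (23.7 ± 1.57 FPKM), Klf9 (10.2 ± 0.0542 FPKM), Thrb (2.15 ± 0.157 FPKM) and Crym (0.880 ± 0.354 FPKM), with no overlap between neighbours. Hcn2 (0.195 FPKM) and Dio2 (0.0677 FPKM) were lowest there and overlapped. These tables were estimated separately, so the levels of a gene in the 2 tissues are set side by side without a test.

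**Figure D1:**
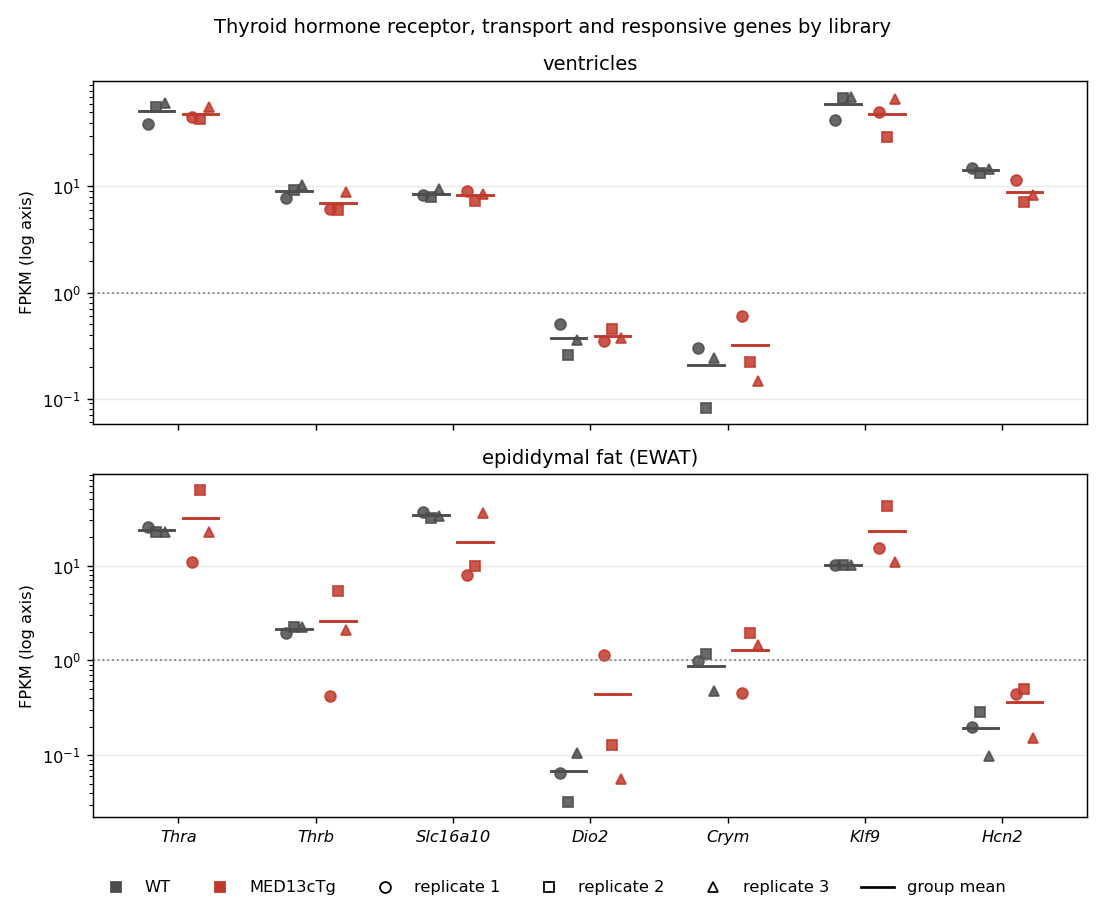
FPKM of the 7 genes in each library on a log axis, with ventricles above and EWAT below, WT in grey, MED13cTg in red, the marker shape giving the replicate number and the short line the group mean; the dotted line is 1 FPKM. In ventricles only Hcn2 separates the genotypes without overlap (13.4 to 15.0 FPKM in WT, 7.08 to 11.5 FPKM in MED13cTg), and in EWAT the MED13cTg points of replicates 1 and 2 lie far from the tight WT points for Thra, Thrb and Slc16a10.

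Each tissue had 5 of the 7 genes above the minimum level for testing. In ventricles these were Thra, Thrb, Slc16a10, Klf9 and Hcn2, and 0 of the 5 passed the limma threshold, with 1 at an unadjusted p under 0.05 (Hcn2). Over all 12589 entries tested in ventricles 0.0556% passed, and 4.73% had an unadjusted p under 0.05. All 5 log2 fold changes were below 0 in ventricles, with a median of -0.35 beside -0.01 over all entries tested. In EWAT Crym took the place of Hcn2, 0 of the 5 passed, and none had an unadjusted p under 0.05, as 1.25% of 14967 entries had, where 0.0134% passed (2 entries, and 0 with the replicate number as a block). There, 3 log2 fold changes were above 0 and 2 below, with a median of 0.09 beside 0.01 over all entries tested. Crym, 1 of the 3, passed the minimum only through the MED13cTg libraries, so its place in this count and median supports nothing. A p that misses the threshold does not show that the genotypes had equal levels, and the intervals below give the sizes that the data leave room for.

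**Figure D2:**
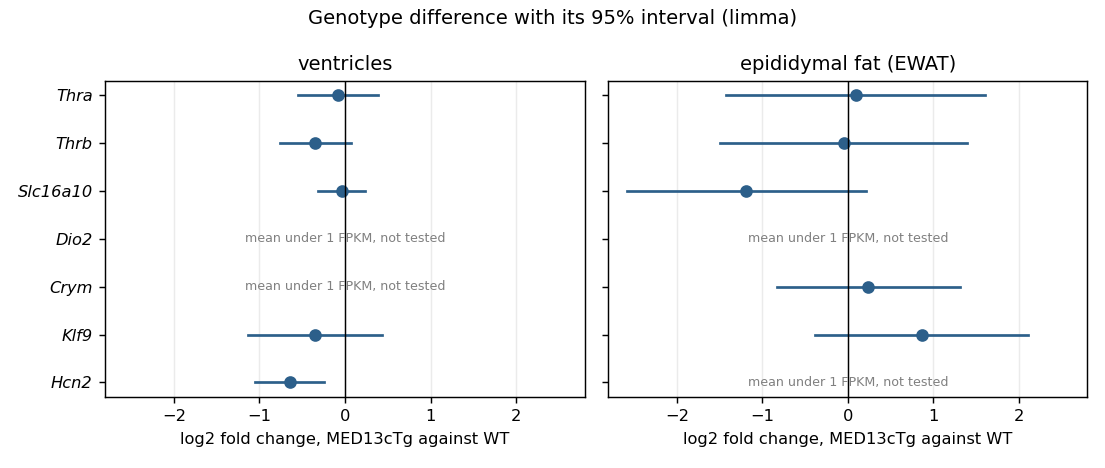
Log2 fold change of MED13cTg against WT (horizontal axis) for each gene, with the point for the limma estimate and the line for its 95% interval, ventricles on the left and EWAT on the right. The Hcn2 interval in ventricles, -1.05 to -0.24, lies below 0, and the EWAT intervals are wider than the ventricle ones for Thra, Thrb, Slc16a10 and Klf9.

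The receptor genes come first. Thra encodes the receptor form that predominates in heart, together with a splice form that does not bind T3, and the table gives 1 value for the gene as a whole. In WT ventricles Thra was 38.5, 56.0 and 60.6 FPKM, and in MED13cTg ventricles 45.4, 43.1 and 56.1 FPKM. The genotypes overlapped, with the lowest library a WT one. The log2 fold change was -0.08 ± 0.20 (SE), with a 95% interval of -0.55 to 0.39 (limma adjusted p = 0.972). It changed sign to 0.07 with the library cluster as a covariate, so no direction is given for Thra.

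Thrb encodes the second receptor, known for feedback in the pituitary and for actions in liver. In WT ventricles it was 7.72, 9.23 and 10.4 FPKM, and in MED13cTg ventricles 6.14, 5.99 and 8.91 FPKM. MED13cTg replicates 1 and 2 were below every WT library, and MED13cTg replicate 3 lay inside the WT range. The log2 fold change was -0.35 ± 0.17 (SE), with an interval of -0.76 to 0.07 (limma adjusted p = 0.966). With the library cluster as a covariate it was -0.21 ± 0.09. Without 1 library at a time and under the other settings it stayed between -0.51 and -0.21, and the lowest adjusted p among these settings was 0.107.

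The ratio of the receptors within a library does not depend on how the library was scaled. Thra was 4.98, 6.07 and 5.85 times Thrb in WT ventricles and 7.40, 7.19 and 6.30 times Thrb in MED13cTg ventricles. Every MED13cTg ratio was above every WT ratio, and the log2 ratio differed by 0.31 (exact two-sided permutation test, p = 0.1, the smallest that 3 against 3 can give). The difference stayed between 0.22 and 0.38 when each library was left out in turn. Inside the first library cluster the ratios were 4.98 in WT against 7.40 and 7.19 in MED13cTg. Inside the second they were 6.07 and 5.85 in WT against 6.30 in MED13cTg. The gap was wider in the first cluster, which holds 1 WT library. In EWAT the ratios were 12.97, 10.1 and 10.2 in WT and 26.0, 11.7 and 10.8 in MED13cTg. These overlapped, and the log2 difference of 0.43 (exact two-sided permutation test, p = 0.5) fell to 0.03 without MED13cTg replicate 1. Same-numbered EWAT libraries deviated together, though the pairing was not clear for replicate 3. The MED13cTg ratio was the higher one in 3 of 3 such pairs (exact two-sided sign-flip permutation test, p = 0.25, the smallest that 3 pairs can give, added after the data were seen).

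In EWAT the receptors were tight in WT and spread in MED13cTg. Thra was 25.5, 22.7 and 22.8 FPKM in WT against 10.9, 63.0 and 22.7 FPKM in MED13cTg. Thrb was 1.97, 2.24 and 2.23 FPKM in WT against 0.420, 5.38 and 2.10 FPKM in MED13cTg. Both genes were lowest in MED13cTg replicate 1, highest in MED13cTg replicate 2 and near WT in MED13cTg replicate 3. The log2 fold changes were 0.09 ± 0.61 (SE) for Thra and -0.05 ± 0.58 for Thrb (limma adjusted p = 0.959 and 0.976). Without MED13cTg replicates 1 and 2 they were -0.06 ± 0.13 and -0.02 ± 0.15, where the lone MED13cTg library is assumed to vary like the WT libraries. The summed adipocyte markers moved with these levels: 1441 FPKM in MED13cTg replicate 1, 81670 FPKM in MED13cTg replicate 2, and 13700 to 32660 FPKM in WT. The order of the 6 EWAT libraries by Thrb was the same as their order by summed adipocyte markers, a match noticed after the values were seen. Whether the share of adipocytes set the receptor levels was not tested.

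**Figure D3:**
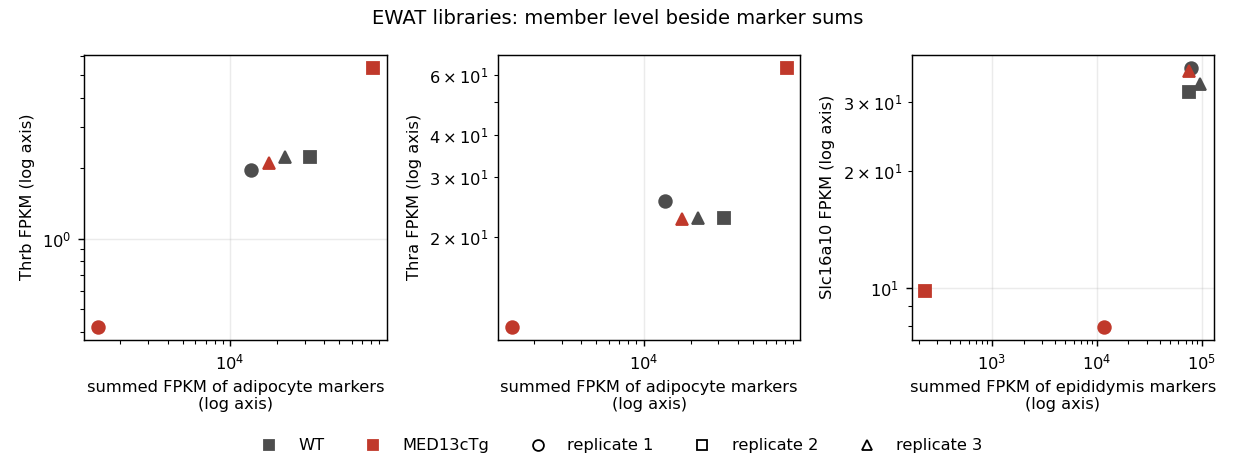
Each point is an EWAT library, WT in grey and MED13cTg in red, with the summed FPKM of adipocyte markers (left and middle) or epididymis markers (right) on the horizontal log axis and the FPKM of Thrb, Thra and Slc16a10 on the vertical log axes. MED13cTg replicate 1 (1441 FPKM of adipocyte markers) and replicate 2 (81670 FPKM) lie at opposite ends for Thrb and Thra, and both lie below the other 4 libraries for Slc16a10.

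Import and activation of the hormone were next. Slc16a10 encodes a transporter of aromatic amino acids that also carries thyroid hormones. In ventricles it was 8.32, 7.90 and 9.41 FPKM in WT against 9.06, 7.33 and 8.48 FPKM in MED13cTg. The genotypes overlapped, and the interval of the log2 fold change, -0.32 to 0.24 around -0.04, was the narrowest of the 5 genes tested there (limma adjusted p = 0.976). In EWAT the WT libraries had 36.8, 31.8 and 33.5 FPKM and the MED13cTg libraries 7.97, 9.83 and 36.0 FPKM. MED13cTg replicates 1 and 2 were far below WT and replicate 3 was within the WT range. The log2 fold change was -1.19 ± 0.56 (SE), with an interval of -2.59 to 0.21 (limma adjusted p = 0.738). It was 0.08 ± 0.14 without MED13cTg replicates 1 and 2, and -1.83 without replicate 3 (limma adjusted p = 0.103). Of the 13 epididymis markers, 12 were below every WT library in MED13cTg replicate 1 and 13 in replicate 2. Their part in the Slc16a10 values was not tested.

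Among the listed transporters of the hormone and of amino acids in EWAT, 5 of 5 tested, Slc16a10 included, had a log2 fold change below 0, and 0 of 5 passed. Slc3a2, the heavy chain that carries the Slc7a5 and Slc7a8 light chains to the membrane, was the 1 gene of the thyroid hormone pathway lists in EWAT with an unadjusted p under 0.05. It was 196.4, 169.2 and 194.5 FPKM in WT against 71.8, 54.8 and 160.1 FPKM in MED13cTg, without overlap (log2 fold change -1.11 ± 0.43 SE, limma adjusted p = 0.738). Without MED13cTg replicates 1 and 2 its log2 fold change was -0.22 ± 0.15. In ventricles Slc3a2 overlapped, at 18.9 to 23.3 FPKM in WT against 19.3 to 20.0 FPKM in MED13cTg, and the 5 transporters tested had log2 fold changes between -0.11 and 0.13.

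Dio2 encodes the deiodinase that makes T3 from thyroxine inside the cell. It was low everywhere and was not tested. In ventricles it was 0.504, 0.257 and 0.360 FPKM in WT against 0.348, 0.458 and 0.372 FPKM in MED13cTg. In EWAT it was 0.0656, 0.0322 and 0.105 FPKM in WT against 1.13, 0.127 and 0.0567 FPKM in MED13cTg. The single EWAT value above 1 FPKM belonged to MED13cTg replicate 1, the library with the high germ cell markers, and their part in it was not tested. The other deiodinases were also low: in ventricles Dio1 was listed at 0 in 5 of the 6 libraries and Dio3 in 5 of the 6. In EWAT, Dio3, which inactivates the hormone, was tested at 1.40 ± 0.362 FPKM in WT against 0.921 ± 0.598 FPKM in MED13cTg (limma adjusted p = 0.746). Dio3 passed the minimum there only through the WT libraries, so these values support nothing.

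Crym encodes mu-crystallin, a cytosolic protein that binds T3. In ventricles it was 0.298, 0.0808 and 0.240 FPKM in WT against 0.596, 0.222 and 0.147 FPKM in MED13cTg, too low to be tested, and the genotypes overlapped. In EWAT it was just above the minimum, at 0.998, 1.16 and 0.482 FPKM in WT against 0.457, 1.93 and 1.47 FPKM in MED13cTg. MED13cTg replicates 2 and 3 were above every WT library and replicate 1 was below every one. The gene passed the minimum only through the MED13cTg libraries (mean 1.28 FPKM, against 0.880 FPKM in WT), so its log2 fold change of 0.24 ± 0.43 (SE) (limma adjusted p = 0.836) is given as a value and supports nothing.

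Among the responsive genes, Klf9 encodes a zinc finger transcription factor that both T3 and glucocorticoids are known to induce. In ventricles it was 42.5, 68.1 and 70.2 FPKM in WT against 50.3, 29.1 and 66.1 FPKM in MED13cTg. The genotypes overlapped, and MED13cTg replicate 2 was lowest. The log2 fold change was -0.35 ± 0.33 (SE), with an interval of -1.13 to 0.43 (limma adjusted p = 0.966), and it was -0.10 with the library cluster as a covariate and -0.027 without MED13cTg replicate 2. In EWAT, Klf9 had the tightest WT values of the 7 genes relative to the mean, 10.2, 10.3 and 10.2 FPKM, and 15.3, 42.8 and 10.95 FPKM in MED13cTg. All 3 MED13cTg libraries were above all 3 WT libraries, as were 4.88% of all entries tested in EWAT, and the ratio of means was 2.25. The log2 fold change was 0.87 ± 0.50 (SE), with an interval of -0.38 to 2.11 (limma adjusted p = 0.738). Without MED13cTg replicates 1 and 2 it was 0.09 ± 0.11. Klf9 was the 1 gene of the 5 tested above WT without overlap in EWAT, and 0 of the 5 were below WT without overlap, where 7.8% of all entries tested were.

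Because Klf9 answers to glucocorticoids as well, 6 listed glucocorticoid-responsive genes were read beside it, and 0 passed in either tissue. Fkbp5, a cochaperone of the glucocorticoid receptor, was 52.3, 56.6 and 54.7 FPKM in WT ventricles and 22.4, 15.9 and 45.3 FPKM in MED13cTg ventricles (log2 fold change -1.07 ± 0.34 SE, limma adjusted p = 0.966). In EWAT it was 142.4, 155.9 and 163.5 FPKM in WT against 36.2, 51.3 and 126.7 FPKM in MED13cTg (log2 fold change -1.30 ± 0.48 SE, limma adjusted p = 0.738). Fkbp5 was thus below every WT library in all 3 MED13cTg libraries of each tissue. Its ventricle difference was -1.42 inside the first library cluster and -0.29 inside the second. Below every WT library were also Tsc22d3 in ventricles (135.1, 111.4 and 165.2 FPKM against 166.5 to 197.4 FPKM in WT) and Mt2 in EWAT (558.1, 236.6 and 527 FPKM against 741.6 to 853.2 FPKM in WT). Thus 2 of the 6 lay below WT in each tissue, beside 5.85% of all entries tested in ventricles and 7.8% in EWAT. Zbtb16 and Sgk1 overlapped in both. Mt2 in ventricles went the other way, at 697.6, 411 and 964.2 FPKM in MED13cTg against 447.1 to 494.4 FPKM in WT (log2 fold change 0.48). The joined entry of Per1 and Vamp2 overlapped in both tissues, with log2 fold changes of 0.16 in ventricles and 0.13 in EWAT.

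Hcn2 encodes a subunit of the channels that carry the pacemaker current, which T3 is known to raise in heart. In WT ventricles it was 15.0, 13.4 and 14.5 FPKM, and in MED13cTg ventricles 11.5, 7.08 and 8.26 FPKM. The 3 MED13cTg libraries were below the 3 WT libraries, as were 5.85% of all entries tested in ventricles. No member was above WT without overlap there, as 3.46% of entries were. The ratio of means was 0.625 and the log2 fold change -0.64 ± 0.17 (SE), with an interval of -1.05 to -0.24 (limma adjusted p = 0.945). Over the 15 other settings the log2 fold change lay between -0.82 and -0.45, and the adjusted p between 0.124 and 1.00. Hcn2 did not follow the library clusters. The log2 difference was -0.67 inside the first cluster and -0.69 inside the second, with a single library of one genotype in each. In EWAT Hcn2 was near the floor, at 0.199, 0.287 and 0.0988 FPKM in WT against 0.447, 0.494 and 0.152 FPKM in MED13cTg, and was not tested.

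Hcn4 and Hcn3, of the same channel family, were read beside Hcn2 in ventricles. Hcn4, the subunit that marks the sinoatrial node and conduction tissue, was 1.41, 2.67 and 2.48 FPKM in WT against 0.712, 0.650 and 1.27 FPKM in MED13cTg, again without overlap (log2 fold change -0.76 ± 0.22 SE, limma adjusted p = 0.945). It passed the minimum level only through the WT libraries, with means of 2.19 FPKM in WT and 0.876 FPKM in MED13cTg. Hcn3 was 0.188, 0.195 and 0.138 FPKM in WT against 0.0946, 0.127 and 0.0758 FPKM in MED13cTg. Hcn3 was below the level for testing, and its MED13cTg values were all below its WT values. Of the 6286 ventricle entries above 0 and under 1 FPKM, 4.06% lay below WT without overlap. Markers of atrial muscle, the other heart tissue in which these channels are found, summed to 447 to 743.4 FPKM in WT against 995.5, 2443 and 1160 FPKM in MED13cTg. Most of that sum was Nppa, atrial natriuretic peptide, at 368.1 to 564.5 FPKM in WT against 892, 1773 and 1088 FPKM in MED13cTg. It was the 1 marker of 5 above every WT library in all 3 MED13cTg libraries. Myl7 and Myl4, atrial myosin light chains, were above WT in MED13cTg replicate 2 (321.5 and 245.4 FPKM) and within or below the WT range in replicates 1 and 3, and Bmp10 was at 0 in 5 of the 6 libraries. The part of atrial tissue in these values was not tested.

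Thra, Thrb and Klf9 divided the ventricle libraries in another way. In the first cluster Thra was 38.5 to 45.4 FPKM, Thrb 5.99 to 7.72 FPKM and Klf9 29.1 to 50.3 FPKM. In the second cluster they were 56.0 to 60.6, 8.91 to 10.4 and 66.1 to 70.2 FPKM. None of the 3 genes overlapped between the clusters, while Slc16a10, Dio2, Crym and Hcn2 did. The clusters were defined from all genes of the same libraries, so this is a description, and 17.13% of the 12589 entries tested were higher in every library of the second cluster in the same way.

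Nr1d1, the clock repressor REV-ERB alpha, is the neighbour of Thra on the opposite strand, and it ran against these genes. It was 43.7, 25.02 and 24.6 FPKM in WT ventricles and 47.6, 67.1 and 27.1 FPKM in MED13cTg ventricles, so it was high in the first cluster and low in the second. Dbp, another clock output, was 95.3 to 123.4 FPKM in the first cluster and 47.2 to 68.2 FPKM in the second. Of the 12589 entries tested, 23.08% were likewise lower in every library of the second cluster. Over the 6 ventricle libraries the correlation with Nr1d1 on the log2 scale was -0.85 for Thra, -0.94 for Thrb and -0.96 for Klf9, a description of libraries that share their clusters. The Thra and Nr1d1 genes share 263 exonic bases in the GENCODE M21 annotation of GRCm38, which is 5.7% of the exonic bases of Thra and 8.55% of those of Nr1d1. The kit does not mark strand, so fragments from the shared bases cannot be assigned to either gene from these tables. Both entries have the same locus, chr11:98603186-98636556 on mm9. In ventricles the values of the 2 entries moved in opposite directions. In EWAT, MED13cTg replicate 2 was highest for both (62.95 FPKM for Thra, 92.8 FPKM for Nr1d1 against 11.1 to 15.2 FPKM in the 5 other libraries).

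**Figure D4:**
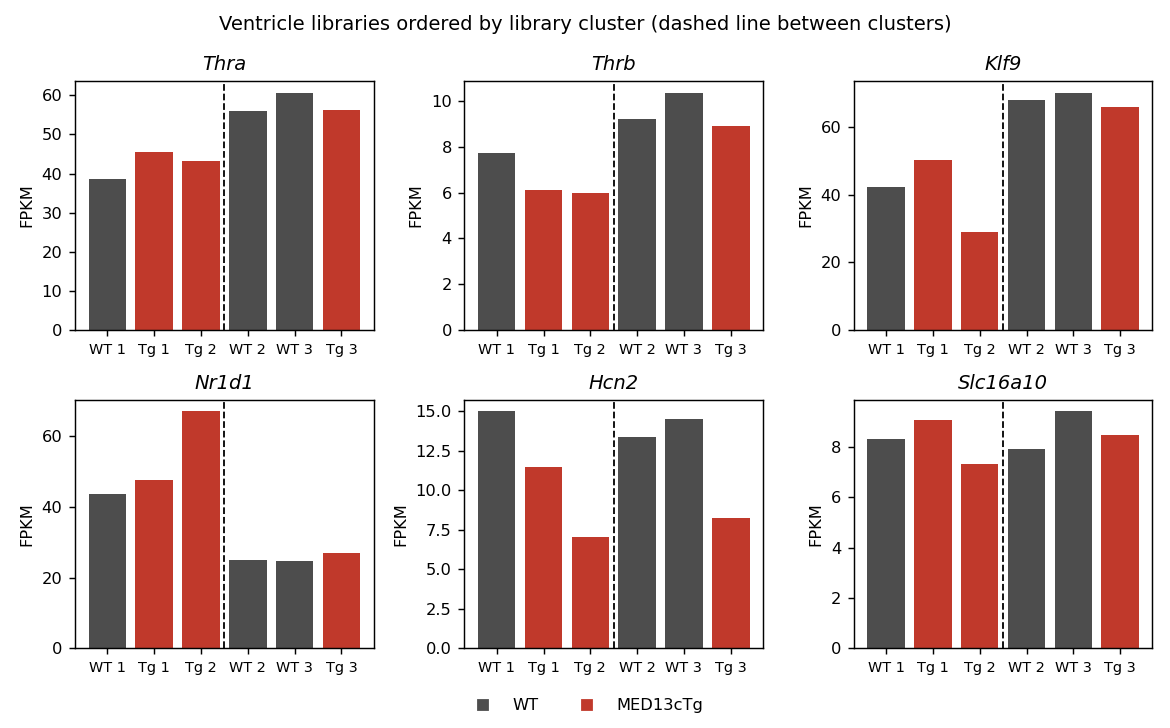
Bars give the FPKM of 6 genes in the 6 ventricle libraries, WT in grey and MED13cTg (Tg) in red, ordered so that the dashed line separates the 2 library clusters. Thra, Thrb and Klf9 are higher and Nr1d1 is lower to the right of the line (24.6 to 27.1 FPKM), whereas Hcn2 is lower in the red bars on both sides and Slc16a10 follows neither division.

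The genes most like each member in ventricles were picked for following it, so that they share its division of the libraries adds no support. Likeness was the Pearson correlation of log2(FPKM + 1) over the 6 libraries, among the 9282 genes that averaged 5 FPKM or more, given as a description. For Thra these were Rabep1 (0.999) and Fyco1 (0.998), with 747 genes above 0.9. For Thrb they were Pitpnb (0.999) and Acot11 (0.994), with 407 genes above 0.9, and for Klf9 Snap23 (0.996) and Spag9 (0.990), with 506 genes above 0.9. Slc16a10 and Hcn2 had fewer like them: 34 genes were above 0.9 for Slc16a10, led by Rnf115 (0.988) and Fbxo8 (0.978), and 57 for Hcn2, led by Tmem41a (0.988) and Chd9 (0.986). Tmem41a was 14.2 to 14.5 FPKM in WT against 12.9, 9.01 and 10.0 FPKM in MED13cTg.

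Whether the genotype difference itself differed between tissues was tested for the 4 genes at or above 1 FPKM in both, with a limma contrast over the 12 libraries. It passed for 0 of the 4, and for 0.0251% of the 11936 entries tested. The difference of log2 fold changes, ventricles minus EWAT, was 1.15 ± 0.60 (SE) for Slc16a10 and -1.21 ± 0.64 for Klf9 (limma adjusted p = 0.765 for each). For Thra and Thrb it was -0.17 and -0.30. Without MED13cTg replicate 3 of EWAT the Slc16a10 difference was 1.79 ± 0.21 (limma adjusted p = 0.00556), a value that rests on the 2 EWAT libraries that stood apart. Under that setting 646 of the 11936 entries passed, against 3 with all 12 libraries.

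The wider pathway was read through lists of 61 genes that cover receptors, partners, transport, deiodination, cofactors and responsive genes of heart, fat and liver. Of these, 60 were found and 48 entries were tested in each tissue, and 0 passed in either. In ventricles 4 of the 48 had an unadjusted p under 0.05, all with lower values in MED13cTg (Hcn2, Hcn4, Slc8a1 and Ppargc1a). Over all entries tested, 3.03% had an unadjusted p under 0.05 and lower values. Hcn2 and Hcn4 were listed as induced by T3 in heart, Slc8a1 as repressed by it and Ppargc1a as a coactivator, so the 4 do not share a direction of hormone response. Of these 4, Hcn4 passed the minimum level only through the WT libraries, so its place in this count and in the ventricle counts that follow supports nothing. Log2 fold changes were below 0 for 39 of the 48 and above 0 for 9, with a median of -0.10 beside -0.01 over all entries tested. In EWAT 1 of the 48 had an unadjusted p under 0.05, 25 were above 0 and 23 below, and the median was 0.04. Some of these passed the minimum there through 1 genotype only, Crym, Pln and Dio3 among them, so their signs support nothing.

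Among the receptor partners in ventricles, Rxrg was 47.5, 44.3 and 55.2 FPKM in WT against 41.9, 41.8 and 43.4 FPKM in MED13cTg, and Rxrb 28.2 to 29.5 FPKM in WT against 26.1 to 27.5 FPKM in MED13cTg. Neither overlapped, and their log2 fold changes were -0.20 ± 0.12 and -0.11 ± 0.09 (SE) (limma adjusted p = 0.966 for each). Ppargc1a, a coactivator known for mitochondrial genes, was 63.3, 55.5 and 44.6 FPKM in WT against 33.0, 30.6 and 47.5 FPKM in MED13cTg (log2 fold change -0.56 ± 0.21 SE, limma adjusted p = 0.966). It overlapped, and its log2 difference was -0.97 within the first cluster and -0.07 within the second. The 7 corepressor genes tested lay between -0.18 and -0.01.

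**Figure D5:**
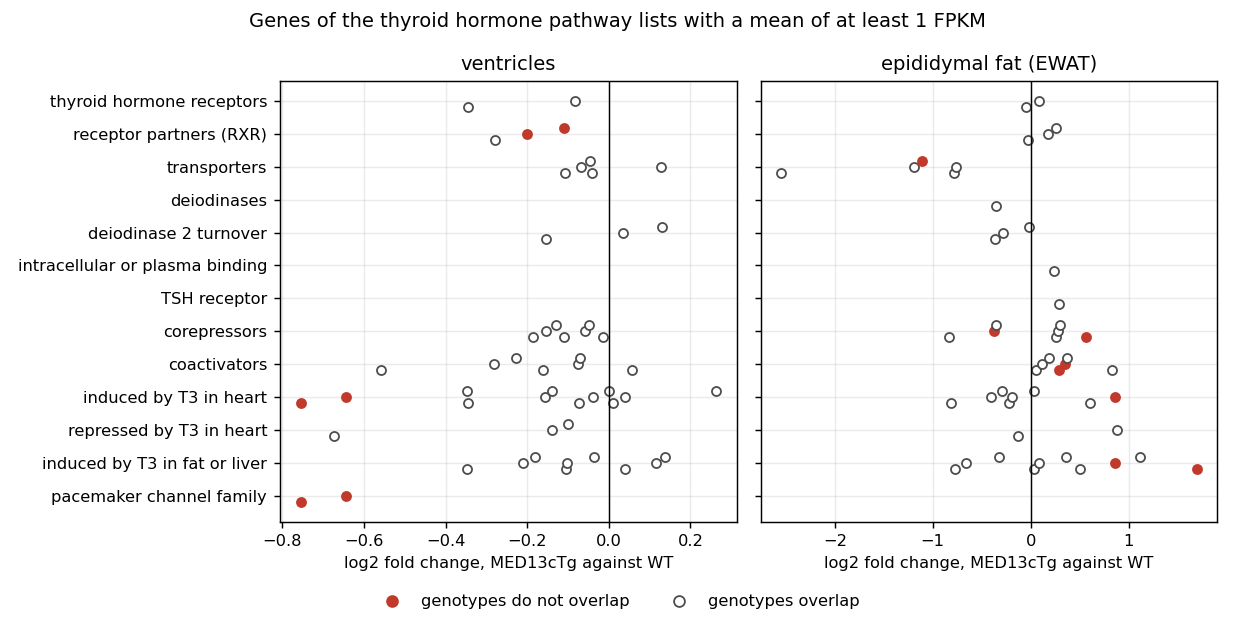
Each point is a gene of a pathway list averaging 1 FPKM or more, placed by its log2 fold change of MED13cTg against WT, ventricles on the left and EWAT on the right with their own horizontal scales; filled points are genes whose genotypes do not overlap, and a gene of 2 lists appears in both. In ventricles 39 of 48 genes lie below 0, with Hcn2 (-0.64) among the lowest, beside a median of -0.01 over all entries tested. Hcn4 (-0.76) passed the minimum level only through the WT libraries, so its place there supports nothing. In EWAT the points spread from -2.55 (Slc7a5) to 1.69 (Gpd2).

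The classical cardiac targets showed no genotype difference past the threshold. The myosin heavy chain genes Myh6, which T3 raises, and Myh7, which it lowers, share 1 joined entry, so their balance cannot be read, and the entry was 5045 ± 307.5 FPKM in WT against 4742 ± 1432 FPKM in MED13cTg (SD, n = 3). Atp2a2, the calcium pump of the sarcoplasmic reticulum, was 6230 ± 2228 FPKM in WT against 7471 ± 2526 FPKM in MED13cTg. Pln, the inhibitor of that pump, was 4009 ± 450.1 FPKM in WT against 3727 ± 200.9 FPKM in MED13cTg. Their log2 fold changes of -0.14, 0.26 and -0.10 had limma adjusted p-values of 0.971, 0.966 and 0.969, and without MED13cTg replicate 2 that of Atp2a2 was 0.014. Slc8a1, the sodium-calcium exchanger, was listed as repressed by T3 in heart, unlike Hcn2 and Hcn4. It was 12.8, 20.4 and 22.9 FPKM in WT against 11.01, 9.08 and 13.4 FPKM in MED13cTg (log2 fold change -0.67 ± 0.23 SE, limma adjusted p = 0.966). Its values overlapped between the genotypes and not between the library clusters, with 9.08 to 12.8 FPKM in the first and 13.4 to 22.9 FPKM in the second. Inside the clusters its log2 difference between genotypes was -0.33 and -0.65.

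The fat and liver targets in EWAT again turned on the libraries that stood apart. Thrsp, a lipogenic gene that T3 induces, was 312.5, 700.6 and 607.9 FPKM in WT against 34.8, 1348 and 559.8 FPKM in MED13cTg. Me1, the malic enzyme, was 37.1, 130.3 and 86.2 FPKM in WT against 142, 240 and 128.7 FPKM in MED13cTg, with an overlap at MED13cTg replicate 3. It was higher in MED13cTg in each same-numbered pair, but the labels state no pairing and it was not clear for replicate 3. Gpd2, the mitochondrial glycerol phosphate dehydrogenase, was 5.78, 6.67 and 6.26 FPKM in WT against 83.5, 16.3 and 7.77 FPKM in MED13cTg, without overlap. Their log2 fold changes were -0.77, 1.12 and 1.69 (limma adjusted p = 0.834, 0.738 and 0.738). Without MED13cTg replicates 1 and 2 they were 0.13, 0.77 and 0.28. Ucp1, the uncoupling protein of brown fat, was 0.339 to 1.00 FPKM in WT against 0.600 to 1.41 FPKM in MED13cTg and was not tested. Over the 48 list entries tested in EWAT, 5 lay above WT without overlap and 2 below, beside 4.88% and 7.8% of all entries. Among cofactors, these were Gps2, Crebbp and Ep300 above WT and Hdac3 below, with log2 fold changes of 0.57, 0.35, 0.29 and -0.37 (limma adjusted p = 0.738 for each). Gps2 was 87.8 FPKM in MED13cTg replicate 1 and 30.3 and 32.1 FPKM in the others, and without that library its log2 fold change was 0.080. Tshr, the thyrotropin receptor that adipocytes also carry, was 4.71 to 6.50 FPKM in WT against 1.81, 39.8 and 4.03 FPKM in MED13cTg, highest like Thra and Thrb in MED13cTg replicate 2.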

How the data were processed

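Ventricle and EWAT RNA from mice of both genotypes was sequenced from TruSeq libraries. The authors aligned reads with TopHat to mm9, per the submitters' processing notes, and estimated gene levels with Cufflinks; versions are not given in the sources used here. The deposited tables hold FPKM per library; the authors' group means and fold changes in them were not used, nor was 1 unnamed column with values. Read depth is unknown; the smallest steps of low values put the libraries of a tissue at 0.664 to 1.02 times the depth of WT replicate 1, and the number of libraries limits the precision.

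Symbols joined by commas were split. log2(FPKM + 1) was fitted per tissue with limma 3.58.1 (trended empirical Bayes, R 4.3.3) for entries with a mean of at least 1 FPKM; other steps used Python 3.11.15. The script was tested on simulated data. The members and lists were chosen with earlier results of these data known, and so were the ventricle clusters and the EWAT libraries left out. Named genes are the 7 members, Nr1d1, Med13, list genes that passed or did not overlap between genotypes, Myh6, Myh7, Atp2a2, Pln, Thrsp, Me1, Ucp1, the 2 genes most like each member, and examples of glucocorticoid-responsive genes; Slc8a1, Ppargc1a, Dio1, Dio3, Dbp, Hcn3, Nppa, Myl7, Myl4 and Tshr were named after their values were seen, and 1 gene of the lists is not reported here. Same-numbered WT and MED13cTg libraries deviated together in EWAT (correlations 0.144 to 0.347) and not in ventricles (-0.192 to 0.140). Different-numbered libraries in EWAT had correlations of -0.4165 to 0.1683. There, WT replicate 3 went more with MED13cTg replicate 2 (0.1683) than with MED13cTg replicate 3 (0.1444), so the pairing is not clear for replicate 3. Alternatives changed the pseudocount, filter, scaling, trend, weights, replicate block and libraries. P-values measure the spread between these libraries.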

Additional observations from a re-analysis of the deposited data

How the results depend on the processing

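No setting gave a call for any of the 7 genes within a tissue, under the 15 alternatives run in each. The replicate block, a paired fit on the replicate number, left the members called at 0 in both tissues and the log2 receptor ratio difference in EWAT at 0.43. Over all entries tested, it gave 4 calls in ventricles in place of 7 and 0 in EWAT in place of 2. In ventricles a filter at 5 FPKM gave 3 and array weights 15, and leaving out each library gave 4 to 9. In EWAT no filter and array weights gave 0 each, leaving out MED13cTg replicates 1 and 2 gave 19, and leaving out each library gave 1 to 5. Signs turned for small values. In ventricles Thra was 0.072 with the cluster covariate and -0.28 to 0.044 without 1 library at a time, Slc16a10 was 0.061 with array weights and -0.10 to 0.036 without 1 library, and the joined Myh6 entry was -0.31 to 0.14 without 1 library. In EWAT Thra was -0.0028 after quantile normalization, -0.057 without MED13cTg replicates 1 and 2 and -0.55 to 0.66 without 1 library; Thrb was 0.23 with array weights and -0.58 to 0.50 without 1 library. Slc16a10 was 0.083 without MED13cTg replicates 1 and 2, and Thrsp was 0.10 with array weights, 0.13 without those libraries and -1.85 to 0.77 without 1 library. The count of members whose genotype effect differed between tissues ran from 0 to 1 (Slc16a10, without EWAT MED13cTg replicate 3, where 646 of 11936 entries passed). Where a setting put a gene under its filter (Thrb and Crym in EWAT and Hcn4 at 5 FPKM, Crym without MED13cTg replicate 2), it gave no value. The causes were not tested.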
